A study of Mus musculus with 6 samples.

Results

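The 10 genes of the insulin-like growth factor axis were examined in left ventricular myocardium of mice with heart failure with preserved ejection fraction (HFpEF). They are the ligand genes Igf1 and Igf2, the receptor genes Igf1r and Igf2r, and the binding protein genes Igfbp2, Igfbp3, Igfbp4, Igfbp5, Igfbp6 and Igfbp7. They were picked by symbol among the 54532 gene identifiers of the deposited table, and each symbol matched 1 identifier. Of the 10 genes, 8 reached the expression minimum for testing, and Igf2 and Igfbp2 did not. The HFpEF group was 3 male C57BL/6 mice, each sequenced as 1 library. They were 6 to 8 weeks old at the start and took a high-fat diet (60% of kcal from fat) and, in their drinking water, 0.5 g/L L-NAME, which blocks nitric oxide synthases, for 12 weeks. The Chow group was 3 male C57BL/6 mice of the same age given standard chow and plain water for the same time. Diet and L-NAME were always given together, so their contributions cannot be told apart. The labels call the tissue heart, and the methods of the study name the left ventricle. Expression is given as FPKM, the fragments counted for a gene relative to its exon length and to a size value of its library. Levels can thus be compared between genes. Where 3 values are given for a group, they stand in the order of replicates 1 to 3.

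Insulin-like growth factor 1 is a circulating and locally made peptide that promotes growth and survival of cells, including cardiomyocytes, through the tyrosine kinase receptor encoded by Igf1r. Insulin-like growth factor 2 acts mainly before birth in mice, and the receptor encoded by Igf2r takes it up for degradation in lysosomes. The binding proteins hold both ligands in the extracellular space, where they extend ligand lifetime or keep it from the receptor, and proteases release it again. In the adult heart much of this axis is made by fibroblasts, vascular cells and macrophages, while cardiomyocytes respond to it.

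The libraries held 13076760 to 15574926 recovered reads in Chow and 13461739 to 16027101 in HFpEF. HFpEF replicate 3 stood apart from the other libraries. On the first principal component of the genes tested (42.3% of the variance) it lay at 75.5, against 11.5 and 12.7 for the other HFpEF libraries and −35.8 to −31.7 for Chow. Mitochondrially encoded genes took 7.17% of its reads, against 20.1% to 26.0% in the other 5 libraries. Values without that library are therefore given beside calls that change when it is left out. Ventricular cardiomyocyte markers (Actc1, Myh6, Atp2a2 and Myl3 the most abundant) were present in every library, at a summed FPKM of 17679 to 19269 in Chow and 8541 to 13524 in HFpEF.

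Of the 8 genes tested, 6 were higher in every HFpEF library than in every Chow library, namely Igf1, Igfbp3, Igfbp4, Igfbp5, Igfbp6 and Igfbp7, and 0 were lower in every HFpEF library. Among all 14225 genes tested, 15.6% were higher and 19.7% lower without overlap. The same 6 genes had an unadjusted p under 0.05 in limma's moderated test on log2(FPKM + 0.1), all with higher values in HFpEF, against 10.2% of all genes tested with higher and 13.1% with lower values. With the Benjamini-Hochberg adjustment over all genes tested, 0 of the 8 genes passed 0.05 in limma. In limma's voom on recovered reads 0 passed, and 6 of the 8 had an unadjusted p under 0.05. Of 14220 genes in voom, 1557 had such a p with higher and 1774 with lower values. In limma on log2(FPKM + 0.1), the adjusted threshold was passed by 0.0984% of all genes tested. When a log2 fold change of 2 or more in either direction was also required, 0.0562% passed. The methods of the study name these 2 thresholds for DESeq2, not for limma on FPKM, so the calls need not match those of the study. Of the 8 genes, 0 met both. The median log2 fold change was 0.93 over the 8 genes and −0.01 over all genes tested. Without HFpEF replicate 3, Igf1, Igfbp4, Igfbp5 and Igfbp6 passed the adjusted threshold with higher values in HFpEF, as 2.85% of all genes tested did (5.36% passed with lower values). For 3 mice against 3, an exact permutation test cannot give a p below 0.1, and each of the 6 genes without overlap had that value.

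**Figure D1:**
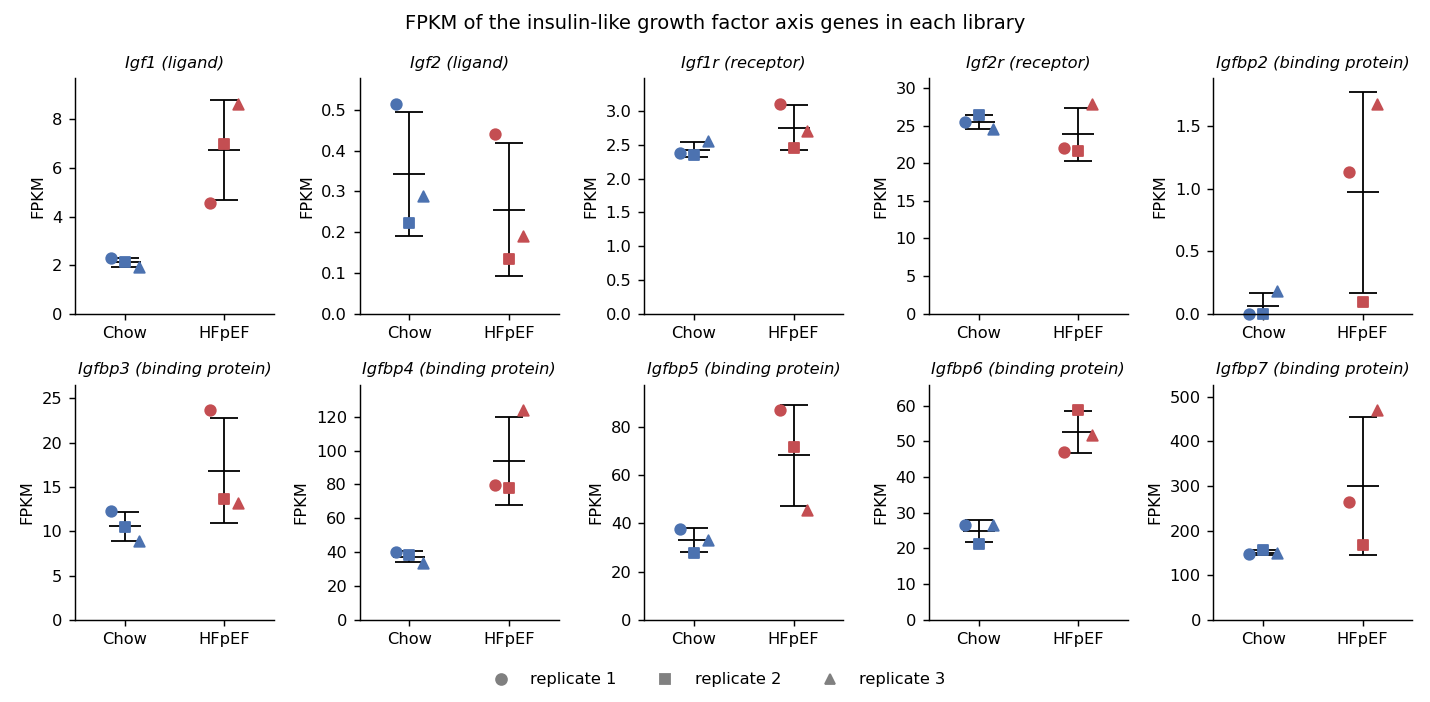
FPKM (y axis, from 0) of each of the 10 genes in the 3 Chow and 3 HFpEF libraries, with points for libraries, point shapes for replicate numbers, and horizontal lines with bars for the mean and SD. Igf1, Igfbp3, Igfbp4, Igfbp5, Igfbp6 and Igfbp7 show no overlap between groups, and the other 4 genes overlap.

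Igf1 (ENSMUSG00000020053), the main growth factor gene of the axis after birth, occupies bases 87858265 to 87937042 of chromosome 10 (GRCm38, plus strand), with an exon length of 9904 bases. Its FPKM was 2.31, 2.11 and 1.91 in the Chow libraries against 4.55, 6.98 and 8.65 in the HFpEF libraries. The lowest HFpEF library was thus well above the highest Chow library, and the HFpEF libraries differed among themselves more than the Chow libraries did. These levels rest on 229 to 326 reads in Chow and 624 to 1655 in HFpEF. The HFpEF mean of 6.73 ± 2.06 (SD, n = 3) was 3.19 times the Chow mean of 2.11 ± 0.200 (SD, n = 3). The log2 fold change was 1.58 (95% confidence interval 1.01 to 2.15, adjusted p = 0.0765 from limma), higher than that of 98.1% of all genes tested. Without HFpEF replicate 3 it was 1.38 (adjusted p = 0.0190 from limma). In bulk tissue, more cells that make a transcript and more transcript per cell cannot be told apart, here and in every comparison that follows.

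Igf2 (ENSMUSG00000048583), the paternally expressed fetal growth factor gene, occupies bases 142650766 to 142666816 of chromosome 7 (minus strand). It was near the detection limit in both groups, with 42, 15 and 20 reads in the Chow libraries against 35, 13 and 21 reads in the HFpEF libraries. As FPKM, these were 0.515, 0.223 and 0.289 in Chow against 0.442, 0.134 and 0.190 in HFpEF. HFpEF replicates 2 and 3 were below every Chow library, and replicate 1 was within the Chow range. The means were 0.343 ± 0.153 in Chow and 0.255 ± 0.164 in HFpEF (SD, n = 3 each). With no filter on low values the log2 fold change was −0.36 (95% confidence interval −1.47 to 0.75, adjusted p = 0.697 from limma), an interval that includes differences of either sign, so that none was detectable at this depth. Igf1 made up 86.4% ± 4.35 (SD, n = 3) of the summed ligand FPKM in Chow and 95.7% ± 3.95 (SD, n = 3) in HFpEF, without overlap between groups (exact permutation test, two-sided, p = 0.1).

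Igf1r (ENSMUSG00000005533), the signaling receptor for both ligands, occupies bases 67952827 to 68233668 of chromosome 7 (plus strand). Its FPKM was 2.38, 2.36 and 2.56 in the Chow libraries against 3.11, 2.45 and 2.71 in the HFpEF libraries. HFpEF replicate 2 lay inside the Chow range. The log2 fold change was 0.17 (95% confidence interval −0.16 to 0.50, adjusted p = 0.476 from limma), so a difference of more than 0.50 lies outside the interval. In Chow, Igf1r was above Igf1 in FPKM, and in HFpEF the order was the opposite, with no overlap between the genes in either group.

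Igf2r (ENSMUSG00000023830), the scavenging receptor that also sorts lysosomal enzymes, occupies bases 12682406 to 12769664 of chromosome 17 (minus strand). Its FPKM was 25.4, 26.5 and 24.5 in the Chow libraries against 21.9, 21.7 and 27.9 in the HFpEF libraries. HFpEF replicates 1 and 2 were below and replicate 3 above every Chow library. Here the fitted log2 fold change was −0.11 (95% confidence interval −0.41 to 0.20, adjusted p = 0.633 from limma). It was −0.22 without HFpEF replicate 3 (adjusted p = 0.0993 from limma) and 0.0043 with quantile normalization. Airn, an antisense transcript whose gene span overlaps that of Igf2r, had a mean FPKM of 3.78 in Chow and 3.58 in HFpEF. Where exons of the 2 genes overlap, their reads can be separated only if the counting used strand. The sources used here do not state this, and overlap of exons was not examined.

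Igfbp4 (ENSMUSG00000017493), whose product inhibits ligand access to the receptor until the protease pappalysin cleaves it, occupies bases 99041244 to 99054392 of chromosome 11 (plus strand). Its FPKM was 39.9, 38.4 and 33.7 in the Chow libraries against 79.8, 77.8 and 124 in the HFpEF libraries. Every HFpEF library was above 2 times the Chow mean of 37.4 ± 3.24 (SD, n = 3), and the HFpEF mean was 93.9 ± 26.2 (SD, n = 3). The fitted difference on the log2 scale was 1.29 (95% confidence interval 0.81 to 1.78, adjusted p = 0.0819 from limma). Without HFpEF replicate 3 it was 1.08 with a narrower interval of 0.87 to 1.29 (adjusted p = 0.0102 from limma).

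Igfbp6 (ENSMUSG00000023046), whose product prefers insulin-like growth factor 2 over 1, occupies bases 102144362 to 102149511 of chromosome 15 (plus strand). Its FPKM was 26.5, 21.3 and 26.6 in the Chow libraries against 47.0, 58.9 and 51.9 in the HFpEF libraries. The HFpEF libraries were closer to each other, relative to their mean, than for any other of the 6 genes without overlap, with a highest value 1.25 times the lowest. HFpEF exceeded Chow on the log2 scale by 1.08 (95% confidence interval 0.74 to 1.42, adjusted p = 0.0619 from limma), and its p ranked 37 among all genes tested. Without HFpEF replicate 3 it was 1.09 (adjusted p = 0.0166 from limma).

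Igfbp5 (ENSMUSG00000026185), whose product binds the extracellular matrix and can carry ligand there, occupies bases 72857932 to 72874884 of chromosome 1 (minus strand). Its FPKM was 37.8, 27.8 and 33.3 in the Chow libraries against 87.2, 71.8 and 45.8 in the HFpEF libraries. Here HFpEF replicate 3 was the lowest of the HFpEF libraries, the reverse of Igf1 and Igfbp4. This gave a log2 fold change of 1.01 (95% confidence interval 0.40 to 1.61, adjusted p = 0.119 from limma). It was 1.27 without HFpEF replicate 3 (adjusted p = 0.0147 from limma).

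Igfbp7 (ENSMUSG00000036256), a member with low affinity for insulin-like growth factors that is secreted by endothelial and other stromal cells, occupies bases 77349240 to 77408041 of chromosome 5 (minus strand). Its FPKM was 147, 156 and 149 in the Chow libraries against 263, 166 and 470.5 in the HFpEF libraries. HFpEF replicate 2 was only just above the highest Chow library, and replicate 3 was far above the other libraries. These values gave a log2 fold change of 0.86 (95% confidence interval 0.01 to 1.72, adjusted p = 0.213 from limma). Without HFpEF replicate 3 it was 0.48, with an interval of −0.01 to 0.96 (adjusted p = 0.204 from limma). Polr2b, which overlaps Igfbp7 on the opposite strand, had a mean FPKM of 14.6 in Chow and 12.4 in HFpEF.

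Igfbp3 (ENSMUSG00000020427), which encodes the main carrier of insulin-like growth factors in blood, occupies bases 7206086 to 7213923 of chromosome 11 (minus strand). Its FPKM was 12.3, 10.5 and 8.90 in the Chow libraries against 23.7, 13.7 and 13.2 in the HFpEF libraries. HFpEF replicate 1 stood above the other HFpEF libraries, which were close to the Chow range. The fit gave a log2 fold change of 0.63 (95% confidence interval 0.03 to 1.23, adjusted p = 0.202 from limma), and 0.36 without HFpEF replicate 1. Igfbp1, its neighbor on chromosome 11 with 3539 bases between the genes, was listed at 0 in all 6 libraries.

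Igfbp2 (ENSMUSG00000039323), which encodes a carrier with an integrin-binding motif, occupies bases 72824503 to 72852474 of chromosome 1 (plus strand). It ends 5457 bases from the end of Igfbp5, which is transcribed from the opposite strand. Igfbp2 had 0, 0 and 4 reads in the Chow libraries against 29, 3 and 60 reads in the HFpEF libraries, where a count of 0 allows up to 3 reads. HFpEF replicates 1 and 3 were above every Chow library, and replicate 2 was not. With no filter on low values its adjusted p was 0.310 (limma).

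**Figure D2:**
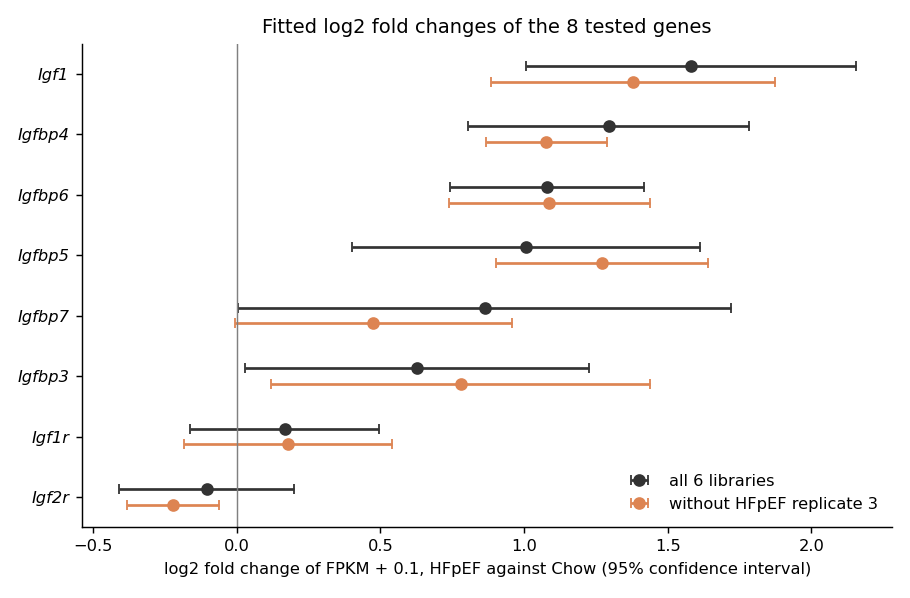
Log2 fold change of FPKM + 0.1 between HFpEF and Chow (x axis) for the 8 tested genes (y axis), with points for estimates and bars for 95% confidence intervals from limma, in the fit of all 6 libraries and in the fit without HFpEF replicate 3. Intervals of Igf1, Igfbp3, Igfbp4, Igfbp5 and Igfbp6 lie above 0 in both fits, and those of Igf1r include 0 in both.

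The 4 genes that passed the adjusted threshold without HFpEF replicate 3 lie on 4 different chromosomes. The 150 bases before the RefSeq start of each are shown because these genes were higher together, so that their promoters can be read side by side. Sequences are from RefSeq on GRCm38.p6, written 5′ to 3′ on the strand of the gene. They cover chr10:87860961-87861110 (plus strand), chr11:99041094-99041243 (plus strand), chr1:72874866-72875015 (minus strand) and chr15:102144036-102144185 (plus strand). Capitals mark exact matches, on either strand, to the motif TATAAA of the box bound by TATA-binding protein, to the motif CCAAT or to the GC-rich motif GGGCGG.
Igf1: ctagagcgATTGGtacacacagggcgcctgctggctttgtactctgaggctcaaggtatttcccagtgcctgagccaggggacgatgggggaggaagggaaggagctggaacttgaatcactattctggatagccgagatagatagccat
Igfbp4: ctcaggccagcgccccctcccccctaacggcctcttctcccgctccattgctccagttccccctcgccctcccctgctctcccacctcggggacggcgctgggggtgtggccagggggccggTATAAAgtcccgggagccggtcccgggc
Igfbp5: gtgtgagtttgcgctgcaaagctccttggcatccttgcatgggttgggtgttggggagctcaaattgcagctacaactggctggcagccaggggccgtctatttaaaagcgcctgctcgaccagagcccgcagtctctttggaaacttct
Igfbp6: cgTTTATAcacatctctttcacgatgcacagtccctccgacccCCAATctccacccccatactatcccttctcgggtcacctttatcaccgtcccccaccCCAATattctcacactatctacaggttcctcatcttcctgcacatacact

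The windows shared few exact matches to these motifs, and near matches were not counted. Igfbp4 held 1 TATAAA, which began 28 bases before the start. Igfbp6 held 1 match to TATAAA on the opposite strand at 148 bases and 2 to CCAAT, at 107 and 50 bases. Igf1 held 1 CCAAT on the opposite strand at 142 bases, and Igfbp5 held no exact match. No 2 matches overlapped. Among 32851 windows of the same length before RefSeq starts, 7.57% held TATAAA, 24.5% CCAAT and 28.6% GGGCGG. GC content was 54.0% for Igf1, 73.3% for Igfbp4, 55.3% for Igfbp5 and 50.7% for Igfbp6, with a median of 54.0% over all windows. The RefSeq start of Igf1, at base 87861111, lies inside the GENCODE gene, which begins further upstream, and gene-level FPKM does not separate the 2 starts. For Igfbp6 the RefSeq start, at base 102144186, lies upstream of the GENCODE gene, which begins at base 102144362. Its window and distances are therefore not those of the GENCODE start. The RefSeq start of Igfbp5, at base 72874865, lies just inside its GENCODE gene, which begins at base 72874884.

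By level in Chow hearts, Igfbp7 was the most abundant of the 10 genes (151 ± 5.13 FPKM, SD, n = 3). Igfbp4 (37.4) and Igfbp5 (33.0) followed with overlapping ranges, then Igf2r (25.5) and Igfbp6 (24.8), again overlapping, then Igfbp3 (10.5), Igf1r (2.43), Igf1 (2.11), Igf2 and Igfbp2. In HFpEF hearts Igfbp6 (52.6) overlapped with Igfbp5 (68.2) rather than Igf2r (23.8), and Igf2r overlapped with Igfbp3 (16.9). Binding protein transcripts exceeded ligand transcripts in every library.

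The 6 binding protein genes summed to an FPKM of 263, 254 and 252 in the Chow libraries against 502, 389 and 707 in the HFpEF libraries. Igfbp7 made up 58.8% ± 2.91 (SD, n = 3) of this sum in Chow and 53.9% ± 11.9 (SD, n = 3) in HFpEF, with 42.8% in HFpEF replicate 2 and 66.5% in replicate 3. When Igfbp7, the weak binder, was left out, the sum was 98.0 to 117 in Chow and 222 to 239 in HFpEF, so the HFpEF libraries that differed most in Igfbp7 were alike in the sum of the others. Igfbp4 was the only binding protein gene whose share of the sum of all 6 did not overlap between groups, at 13.4% to 15.2% in Chow and 15.9% to 20.0% in HFpEF (exact permutation test, two-sided, p = 0.1).

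The summed ligand FPKM was 2.83, 2.33 and 2.20 in the Chow libraries against 4.99, 7.11 and 8.84 in the HFpEF libraries. Binding protein FPKM was 93.1, 109 and 114 times ligand FPKM in the Chow libraries against 101, 54.7 and 80.0 times in the HFpEF libraries. The groups overlapped, and the log2 ratio was 6.72 ± 0.156 in Chow and 6.25 ± 0.445 in HFpEF (SD, n = 3 each) (exact permutation test, two-sided, p = 0.2). HFpEF replicates 2 and 3 were below every Chow library in this ratio, and replicate 1 was within the Chow range. The difference in mean log2 ratio was −0.47 with all libraries, −0.23 without HFpEF replicate 2 and −0.67 without HFpEF replicate 1.

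**Figure D3:**
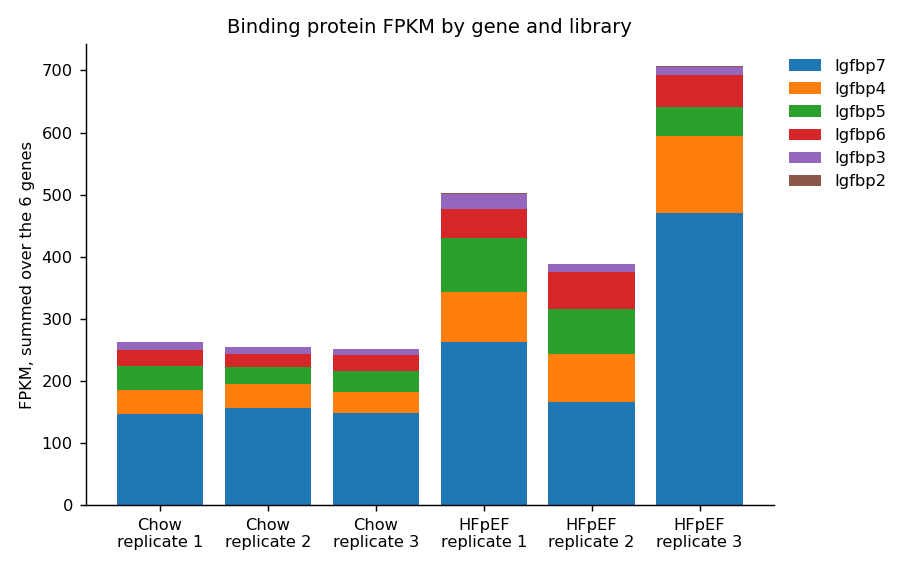
Stacked bars give FPKM of the 6 binding protein genes (y axis, from 0, summed) in each Chow and HFpEF library. The 3 Chow bars end between 252 and 263 and the 3 HFpEF bars between 389 and 707, with most of the spread among HFpEF bars in Igfbp7.

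Markers of several cell types also differed between the groups, some with higher and some with lower values in HFpEF. Over all genes tested, 15.6% were higher and 19.7% lower without overlap between groups. At an unadjusted p under 0.05, 10.2% had higher and 13.1% lower values. Without HFpEF replicate 3, 2.85% passed the adjusted threshold with higher and 5.36% with lower values. All 9 fibroblast markers were tested and 8 were higher in every HFpEF library than in every Chow library (Tcf21 was not), with 6 at an unadjusted p under 0.05. Their summed FPKM was 269 to 317 in Chow and 539, 586 and 5740 in the HFpEF libraries. By mean FPKM, Dcn (113) and Dpt (54.0) led the list in Chow, and Col1a1 (798) and Col3a1 (663) in HFpEF, where replicate 3 set the order. Col1a1 alone was 2252 in HFpEF replicate 3 and 54.0 and 87.2 in replicates 1 and 2. Without that library, 7 of the 9 fibroblast markers passed the adjusted threshold with higher values (limma), all but Col3a1 and Tcf21. Of the 10 macrophage markers (C1qa, C1qb, Csf1r and Mrc1 the most abundant), 4 did not overlap and were higher, and the sum was 118 to 147 in Chow and 146, 203 and 392 in the HFpEF libraries, the first of these within the Chow range. Of these markers, 1 (Lyve1) passed the adjusted threshold with higher values without HFpEF replicate 3. All 10 ventricular cardiomyocyte markers were lower in every HFpEF library than in every Chow library, and 6 of them passed the adjusted threshold with lower values once HFpEF replicate 3 was left out.

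Endothelial markers (9 of 9 tested) had a median log2 fold change of −0.26 and a sum of 238 to 261 in Chow and 194 to 210 in HFpEF. Among them, Cdh5, Kdr and Tie1 passed the adjusted threshold with lower values without HFpEF replicate 3. Of all genes tested, 5.36% passed with lower and 2.85% with higher values without that library. Smooth muscle and pericyte markers (9 of 10 tested) summed to 335 to 374 in Chow and to 722, 245 and 556 in the HFpEF libraries, so that replicate 2 was lower than every Chow library. Of these, Rgs5, Kcnj8 and Abcc9 passed the adjusted threshold with lower values without HFpEF replicate 3. The list went both ways, with a median log2 fold change of 0.20 in the fit of all 6 libraries. In that fit Acta2 (1.38), Myh11 (1.16), Cnn1 (1.83), Pdgfrb (0.20), Cspg4 (0.21) and Notch3 (0.05) had positive values, none past the adjusted threshold. Acta2, Myh11 and Cnn1 were high in HFpEF replicates 1 and 3 and below every Chow library in replicate 2. Epicardial and mesothelial markers (8 of 8 tested) summed to 19.6 to 31.7 in Chow and 40.5, 143 and 65.9 in HFpEF, and cartilage, tendon and valve markers (7 of 10 tested) to 13.3 to 14.7 and 77.4, 21.7 and 94.7, each in replicate order for HFpEF. The median log2 fold change of the cartilage, tendon and valve list was 1.93, and 1.17 without HFpEF replicate 3. Of the adipocyte markers (5 of 7 tested), 4 passed the adjusted threshold in limma with higher values, against 0.0984% of all genes tested in either direction. Their sums were at most 0.0481 in Chow and 36.6 to 89.3 in HFpEF. Adipoq, Cidec, Cfd, Lep and Retn were listed at 0 in every Chow library. Skeletal muscle markers (2 of 6 tested) summed to 0.945 to 2.07 in Chow and 1.78 to 2.09 in HFpEF, with Myh4 at 0 in every library. For the liver, where most circulating insulin-like growth factor 1 is made, Alb and Fgb were listed at 0 in all 6 libraries and the sum of 7 markers was 0.663 to 3.64 in Chow and 3.75 to 6.68 in HFpEF. Most of this sum was 1 gene, Ahsg, at 1.05, 0.504 and 1.92 FPKM in Chow against 5.85, 4.46 and 3.09 in HFpEF. No other marker of the list exceeded 1.39 in any library. The part of these cell types in the differences of the growth factor axis was not tested.

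**Figure D4:**
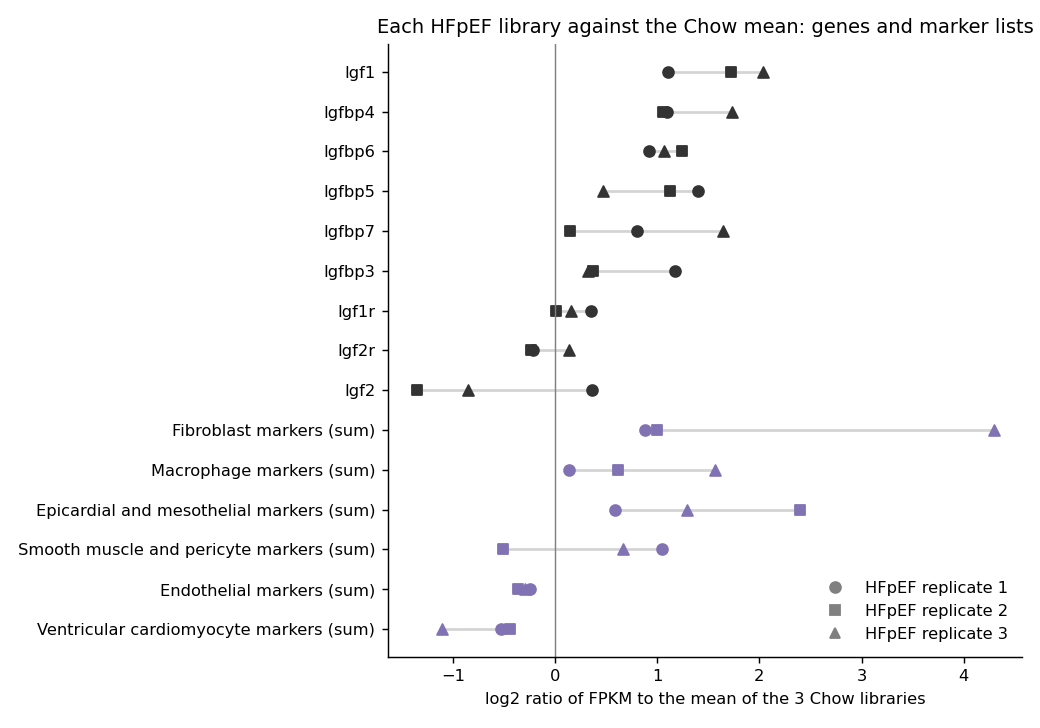
Log2 ratio of FPKM to the mean of the 3 Chow libraries (x axis) for 9 genes of the axis (all but Igfbp2) and for summed marker lists (y axis), with 1 point per HFpEF library and point shapes for replicate numbers. Fibroblast and macrophage sums are highest in replicate 3, as are Igf1, Igfbp4 and Igfbp7, whereas Igfbp5 and Igfbp3 are lowest there.

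Across the HFpEF libraries the genes did not follow a single order. Replicate 3 was the highest HFpEF library for 5 of the 10 genes (Igf1, Igf2r, Igfbp2, Igfbp4 and Igfbp7), replicate 1 for 4 (Igf2, Igf1r, Igfbp3 and Igfbp5) and replicate 2 for Igfbp6. Likeness of pattern was measured as the root mean square difference of centred log2 values over the 6 libraries. The genes most like Igf1 were Cebpa, which encodes a transcription factor of fat, liver and myeloid cells (0.0863), Tmem176a (0.153) and Cdh11, which encodes a cadherin of mesenchymal cells (0.172). Cebpa had an FPKM of 5.22, 4.56 and 4.49 in the Chow libraries against 10.1, 13.5 and 19.9 in the HFpEF libraries, the same order of libraries as Igf1. The genes most like Igfbp4 were Rasgrp4 (0.111), Aldh1a3, which encodes an enzyme of retinoic acid synthesis (0.115), and Fbln1, which encodes the matrix protein fibulin 1 (0.118). Those most like Igf2r were Acot9, Rsl24d1 and Tbca (0.0354 to 0.0368), all of which were highest in HFpEF replicate 3. These values describe 6 libraries that share group and library effects.

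Genes that act on the axis were described from 4 further lists. Carriers and proteases that release ligand from binding proteins held 12 genes, of which 6 were tested. Among all genes tested, 10.2% had an unadjusted p under 0.05 with higher and 13.1% with lower values. In this list 2 of the 6 had one, both with lower values in HFpEF. They were Igfals, which encodes the acid-labile subunit of the circulating complex (log2 fold change −0.78, adjusted p = 0.174 from limma), and Stc2, which encodes an inhibitor of pappalysin (−0.49, adjusted p = 0.213 from limma). Pappa, which encodes pappalysin, the protease that cleaves the product of Igfbp4, was at 0.172 to 0.229 FPKM in Chow and at 0.210, 0.412 and 0.765 in the HFpEF libraries, below the minimum for testing. Also below it, Pappa2 was at 0.0166 to 0.0723 in Chow and 0.105, 0.166 and 0.236 in the HFpEF libraries. Adam12 was at 0.133 to 0.210 in Chow and 0.116, 0.368 and 5.16 in HFpEF, the last in replicate 3. Igfbpl1 was at 0.0216 to 0.254 in Chow and 1.22, 1.14 and 0.127 in HFpEF. Htra1, a protease gene expressed at 37.3 to 42.4 FPKM in Chow and 42.5 to 45.2 in HFpEF, differed by 0.13 on the log2 scale (adjusted p = 0.469 from limma). Ctsd, the most abundant gene of this list, was at 218 to 234 FPKM in Chow and 178 to 199 in HFpEF. Its log2 fold change was −0.25 (adjusted p = 0.274 from limma). Igfbp1 and Adam28 were listed at 0 in every library.

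Growth hormone raises Igf1 transcription through its receptor, Jak2 and the Stat5 proteins. Of the 8 genes of this pathway, all tested, Socs2 and Socs3 had higher and Cish lower values at an unadjusted p under 0.05, and 0 passed the adjusted threshold (limma). At that unadjusted p, 10.2% of all genes tested had higher and 13.1% had lower values. Socs2, a feedback inhibitor induced by Stat5, had an FPKM of 2.72, 3.27 and 3.68 in the Chow libraries against 4.58, 4.51 and 4.46 in the HFpEF libraries. Its groups did not overlap, and its log2 fold change was 0.48 (adjusted p = 0.131 from limma). Socs3, an inhibitor also induced by inflammatory cytokines, was at 1.52 to 2.21 FPKM in Chow and at 2.62, 5.84 and 16.6 in the HFpEF libraries (adjusted p = 0.185 from limma), with most of the difference in replicates 2 and 3. Cish, another target of Stat5, was higher in every Chow library than in every HFpEF library (−0.36, adjusted p = 0.188 from limma). Ghr, the growth hormone receptor gene, was at 20.6 ± 0.671 FPKM in Chow and 17.5 ± 4.48 in HFpEF (SD, n = 3 each), with 12.4 in replicate 3. The list's median log2 fold change was 0.05.

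Among 12 receptors and adaptors below the ligands, 10 were tested and 2 had an unadjusted p under 0.05. That is near the share over all genes tested, 10.2% with higher and 13.1% with lower values. Shc1, which encodes an adaptor that links the receptor to Ras, was higher by 0.40 on the log2 scale (adjusted p = 0.166 from limma), and Grb14, which encodes an inhibitor of the insulin receptor, had a value of −0.64 (adjusted p = 0.148 from limma). Grb14 was at 27.1 ± 1.39 FPKM in Chow and 17.8 ± 4.41 in HFpEF (SD, n = 3 each), and its values did not overlap. Without HFpEF replicate 3, 2.85% of all genes tested passed the adjusted threshold with higher and 5.36% with lower values. Grb14 was the 1 gene of this list that did (log2 fold change −0.41, adjusted p = 0.0269 from limma). For the insulin receptor gene Insr the value was −0.34 (adjusted p = 0.256 from limma), and the docking protein genes Irs1 and Irs2 had values of −0.30 and 0.05. The list's median was −0.13.

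The fourth list held 12 genes of Igf2 mRNA-binding proteins and imprinted genes that, like Igf2, are active in growth before birth. Of these, 9 were tested, 6 had higher and 1 had lower values at an unadjusted p under 0.05, and the median log2 fold change was 0.61. The shares over all genes tested at that p were 10.2% with higher and 13.1% with lower values. Plagl1, which encodes a zinc finger regulator of other imprinted genes, had an FPKM of 1.33, 0.861 and 1.45 in the Chow libraries against 3.79, 3.99 and 3.33 in the HFpEF libraries. Its log2 fold change was 1.56 (adjusted p = 0.0675 from limma), with no overlap between groups. Peg3 (1.46, adjusted p = 0.0987 from limma) and Ndn (1.02, adjusted p = 0.118 from limma) also had no overlap and higher values in HFpEF. H19, the noncoding RNA gene next to Igf2, was at 26.0, 15.9 and 18.1 FPKM in the Chow libraries against 31.8, 33.3 and 25.5 in the HFpEF libraries, so that 1 Chow library lay within the HFpEF range. Cdkn1c, which encodes a cell cycle inhibitor, had the lower values (−0.39, adjusted p = 0.165 from limma). Without HFpEF replicate 3 the list had 3 genes past the adjusted threshold (limma), Plagl1, Peg3 and Meg3, all with higher values. Of all genes tested, 2.85% passed with higher and 5.36% with lower values without that library.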

How the data were processed

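Left ventricular RNA of 3 Chow and 3 HFpEF mice was sequenced, 1 library per mouse. Alignment was by HISAT2 and counting by featureCounts, per the methods of the study, and the authors deposited the gene values as FPKM. The submitters' processing notes name GRCm38, and the annotation is not given in the sources used here. Of 54532 identifiers, 54495 are in GENCODE M21, which gave symbols, coordinates and exon length. FPKM times exon length came in whole steps for 96.1% to 96.2% of values above 0 (relative tolerance 1e-06), from which reads were recovered. The library size implied by the steps was not the number of recovered reads. It was 1.42e+07 against 15574926 reads in Chow replicate 1, and 1.93e+07 against 15196299 in HFpEF replicate 3.

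For the test, FPKM was divided by median-of-ratios factors (1.00 to 1.01), 0.1 was added, and log2 values were fitted for genes that reached an FPKM of 0.5 in 3 or more libraries, with limma 3.58.1 in R 4.3.3 (eBayes, trend and robust), with Benjamini-Hochberg adjustment over all 14225 genes. Because the factors were nearly equal, the rescaled and the unscaled FPKM gave almost the same fit. FPKM values printed are as deposited. Other values used Python 3.11.15, pandas 2.3.3 and scipy 1.17.1. The fit was also run on simulated counts with the same dispersion for every gene and no deviant library. That run cannot show how the fit handles a library such as HFpEF replicate 3. Intervals cover the spread between mice, and limits on counts of 0 cover counting error only.

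Members, lists and tests were chosen with earlier results of these data known. Named were all members, list genes by lowest p (up to 3 per list) or needed to say what a list is, and the most abundant markers. Pappa, Htra1, Ghr, Insr, Irs1, Irs2, H19, Cdkn1c, Meg3, Dpt, Tcf21, Lyve1, Kdr, Kcnj8 and Igfbp1 were named under the second of these or after their values were seen. So were Pappa2, Adam12, Igfbpl1, Ahsg, Myh11, Cnn1, Cspg4 and Notch3. Patterns were compared for the 2 members with the largest and the 1 with the smallest log2 fold change. The alternatives tried were unscaled FPKM, a pseudocount of 1 or 0.01, quantile normalization, an FPKM minimum of 1 or none, eBayes without trend or robust options, voom on recovered reads, a replicate block, and the omission of any 1 library.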

Additional observations from a re-analysis of the deposited data

How the results depend on the processing

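Under 15 alternatives to the fit, Igf1, Igfbp3, Igfbp4, Igfbp5, Igfbp6, Igfbp7 and Igf1r kept the direction of their log2 fold change. Igf2r changed sign with quantile normalization (0.0043), against −0.11. The number of members past the adjusted threshold ran from 0 to 4 when 1 library was left out, with 4 in the fit without HFpEF replicate 3 and 0 in every other fit run. The adjusted p (limma) of Igf1 ran from 0.0190 to 0.338, of Igfbp4 from 0.0102 to 0.338, of Igfbp5 from 0.0147 to 0.353 and of Igfbp6 from 0.0166 to 0.308, with the highest values without Chow replicate 2. Over all genes, 14 passed the adjusted threshold, against 1169 without HFpEF replicate 3, 53 without HFpEF replicate 2, 3 without HFpEF replicate 1, 2 without any 1 Chow library, 32 with eBayes without trend or robust options, 5 and 3 with pseudocounts of 0.01 and 1, and 0 with voom. The cause was not tested. Deviations from the group means were little correlated between same-numbered libraries (r of −0.0406, −0.0730 and −0.0573). With 3 libraries per group this cannot decide whether the numbers pair mice, which the labels do not say. With a replicate block, 5 members had an unadjusted p under 0.05, as did 1304 genes with higher and 1701 with lower values among all 14225. In that fit 2 genes in all passed the adjusted threshold. Igf2 and Igfbp2, at 60 reads or fewer per library, are limited by depth.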
